A study of Homo sapiens with 6 samples.

Results

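The centrosome is the main microtubule-organising centre of animal cells. A pair of centrioles sits in it inside pericentriolar material, from which microtubules grow, and each centriole is copied once per cell cycle under control of the kinase PLK4. The augmin complex adds microtubules by nucleating new ones along existing spindle fibres, and older centrioles carry appendages that anchor the primary cilium. The genes described here are all genes whose symbol is CEP followed by a digit, apart from the cytokinesis gene CEP55. They also include PLK4, STIL, SASS6, CPAP (named CENPJ in older lists), CDK5RAP2, PCNT, PCM1, TACC1, TACC2, TACC3, CKAP5, NEDD1, CNTROB and HAUS1 to HAUS8. The rule gives 67 genes, 59 of them protein-coding, against 19775 genes that the array represents with a probe set of their own. Of the 67, 57 had such a probe set. Measured genes are those whose mean signal exceeded 70.2 (the 50th percentile of every value on the 6 arrays) in some pool, and 54 members were measured. Of these, 52 exceeded it in each pool, CEP72 did so in the controls alone, and CEP83-DT in siPIR alone.

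RNA levels were read with the Affymetrix HG-U133 Plus 2 array in WM-266.4, a human cell line from a metastatic melanoma. The siPIR cells received 200 pmol of a pool of 4 siRNA duplexes against PIR, which encodes the nuclear iron protein pirin. The siCTR cells received the same amount of a pool of 4 non-targeting duplexes, and the NO cells received the transfection reagent Oligofectamine with no oligonucleotide. In all groups transfection was done in serum-free medium 24 h after seeding and cells were collected 72 h after transfection. RNA from 3 extractions was combined into 1 pool per group, and each pool was hybridised to 2 arrays. The design asks what changes when pirin is depleted, with siCTR and NO as controls for the siRNA and for the transfection. Each group is therefore 1 sample, its 2 arrays are technical repeats, and no difference between pools was tested over biological replicates.

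Median signals of the 6 arrays lay between 64.2 and 74.8 over 54675 probe sets. PIR read 392 and 382 with siPIR and 13179.9 to 14153 on the 4 control arrays, a log2 difference of -5.09 from siCTR and -5.17 from NO. All 7 melanocyte markers with a probe set were measured, among them MITF, SOX10 and PMEL, while KRT5, KRT14, DSG3, COL3A1, DCN, PTPRC and CDH5, markers of other cell types, were below the measured range in every pool. Summed over the melanocyte markers, signals ran from 101359 to 103249 in siPIR and from 95250.3 to 103240.0 in the controls. Of the other lists, 1 of 4 keratinocyte, 2 of 5 fibroblast, 1 of 4 leukocyte and 3 of 5 endothelial markers were measured. These were, in that order, KRT10, then COL1A1 and LUM, then CD14, then PECAM1, KDR and TIE1. KRT10 averaged 2594 in siPIR, 3366 in siCTR and 3237 in NO, and KDR 281, 262 and 433. The leukocyte list summed to 339 to 363 in siPIR against 164 to 203 in the controls, most of it from CD14, which averaged 282 with siPIR, against 150.5 (siCTR) and 92.2 (NO). For ACTB, signal near the 3' end over signal near the 5' end, an index of RNA integrity, was 1.13 on both siPIR arrays and 1.23 to 1.27 on the control arrays. The part of these differences in the results was not tested. The signal is bulk, so fewer cells of a type and less RNA per cell cannot be told apart.

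Centrosome genes lay lower in the siPIR pool as a broad, mostly moderate displacement with a few larger differences. Differences are between pool means of log2(signal + 5.4), where 5.4 is the 10th percentile of all values, and a range in parentheses gives the lowest and highest value among the 4 array pairs. The median difference of the 54 measured members was -0.42 from siCTR and -0.49 from NO, beside 0.05 and 0.03 over all 13053 measured genes. Between siCTR and NO the members' median was -0.02, beside 0.01 over all genes. In all, 41 members (75.9%) were below both controls, against 36.8% of all measured genes, and 8 members were above both, against 44.4%. On 30 members both siPIR arrays read lower than all 4 control arrays (55.6%, against 23.1% of all genes), and on 2 members, CEP170B and CEP85L, both read higher (28.4% of all genes). The count of 30 rested on any size of difference. At a size of 1.5-fold or more against each control it was 16 (29.6%, against 7.5% of all genes), and 1, CEP170B, in the other direction (6.27%). Between the controls, siCTR arrays lay below both NO arrays on 13 members (24.9% of all genes) and above both on 12 (28.1%). The comparisons of siPIR with siCTR and with NO share the siPIR arrays.

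**Figure D1:**
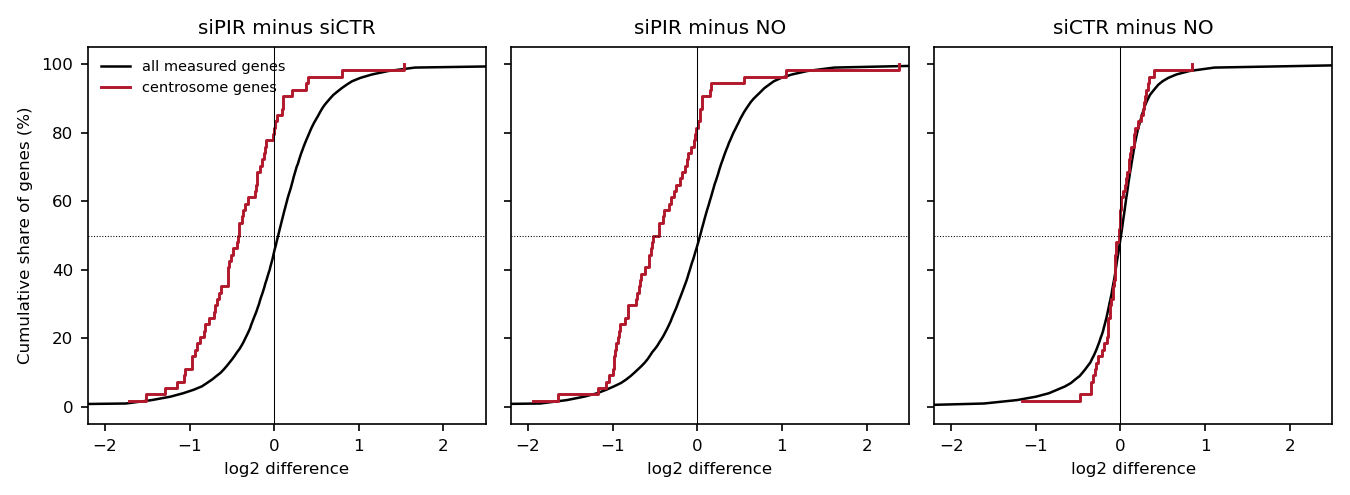
Cumulative share of genes (%) against the log2 difference of pool means, for the 54 measured centrosome genes (red steps) and all 13053 measured genes (black line), in the 3 comparisons between pools. The red steps lie left of the black line in both comparisons with siPIR, with medians of -0.42 and -0.49, and near it for siCTR minus NO, with a median of -0.02.

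A stricter rule called a gene between pools when the difference was at least 2-fold and the arrays of the pools did not overlap. By this rule 4 members, STIL, PLK4, TACC3 and CEP128, were called lower in siPIR than in both controls (7.41%, against 3.2% of all measured genes). Of the 36 members with a pool mean above 458.4, 3 were called lower (8.33%, against 3.4% of all such genes). No member was called higher than both controls, against 1.47% of all genes, although CEP83-DT was when siPIR replicate 2 or siCTR replicate 1 was left out. Against siCTR alone 6 members were called lower and 0 higher (4.21% and 3.66% of all genes). Against NO alone 5 were called lower and 2 higher (5.4% and 3.6% of all genes). Between siCTR and NO 1 member, SASS6, was called, lower in siCTR. Of all genes 3.39% were called in either direction, 2.4% lower and 0.996% higher. The count of 4 lower members became 8 without siPIR replicate 1, when CPAP, CEP68, CEP72 and CEP162 joined. Just inside the limit were TACC3 and CEP128, with smaller differences of -1.07 and -1.05, and just outside it CPAP, CEP15 and HAUS8, with -0.998, -0.99 and -0.97.

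**Figure D2:**
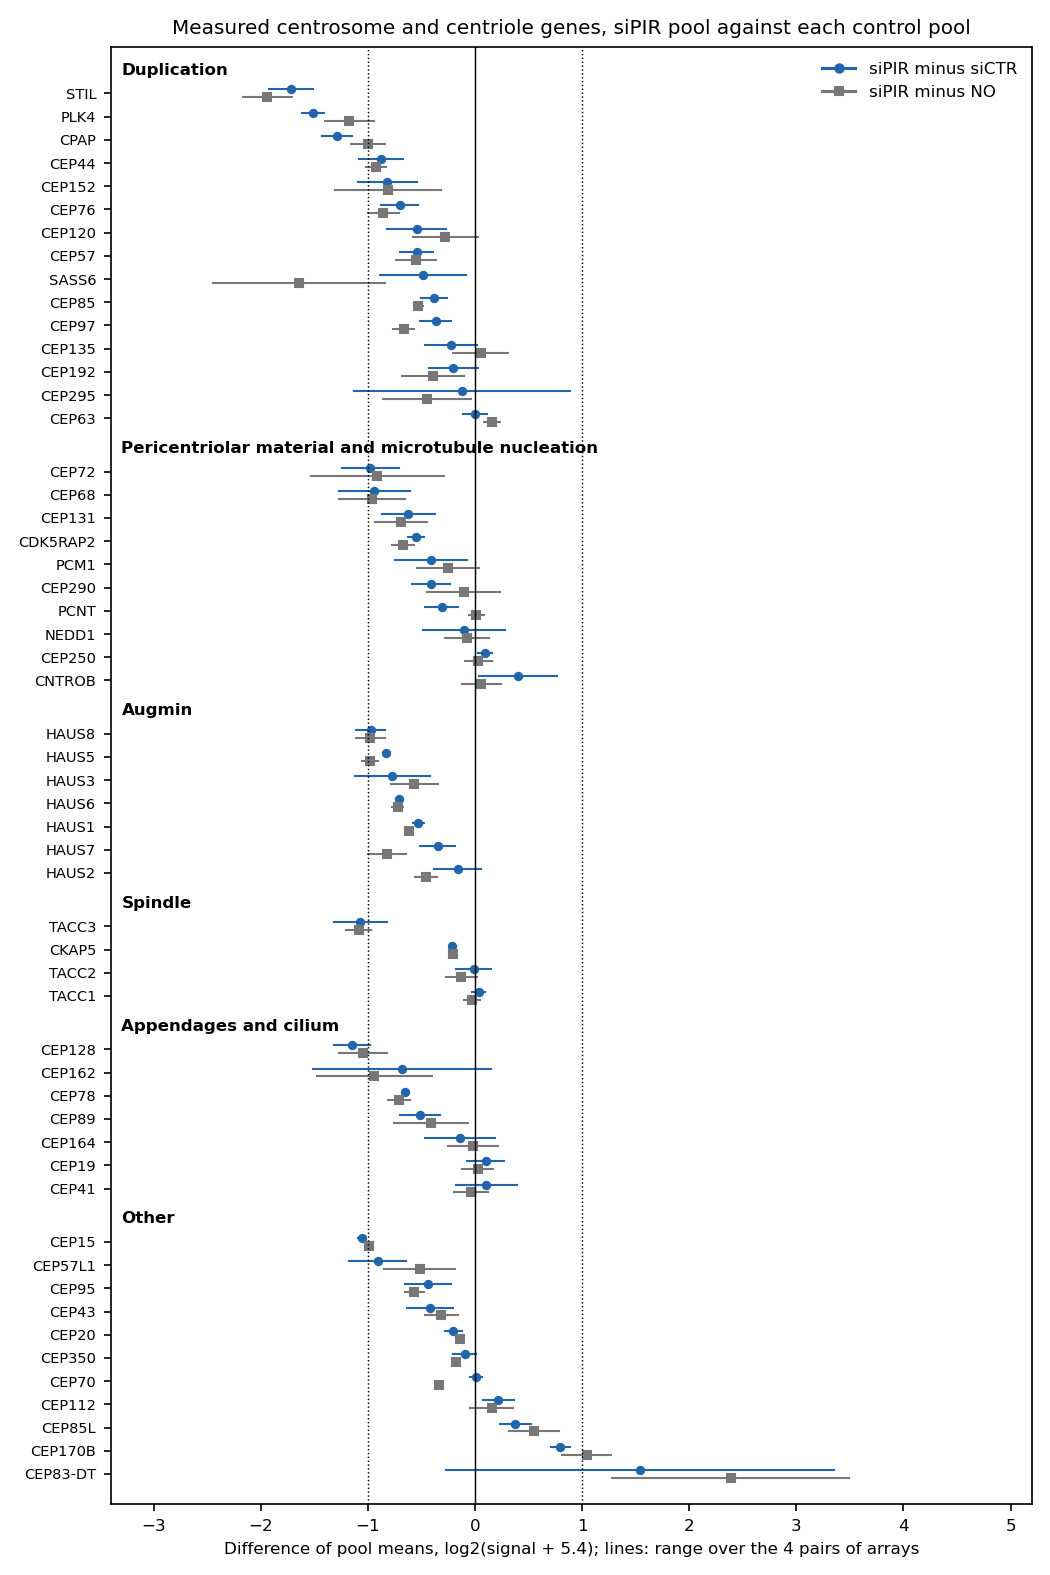
Difference of pool means on the log2(signal + 5.4) scale for each measured member, by role, for siPIR minus siCTR (blue circles) and siPIR minus NO (grey squares); lines span the 4 pairs of arrays and dotted lines mark 2-fold. All 7 augmin genes and most duplication genes lie left of 0, and STIL has the lowest values, -1.72 and -1.94.

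Genes of centriole duplication included STIL and PLK4, the members furthest below both controls. PLK4 starts the process, STIL binds PLK4 and brings in SASS6, and SASS6 builds the cartwheel that gives the new centriole its symmetry. CPAP then sets centriole length by controlling tubulin addition. Of 15 members in this role, all measured, 13 were below both controls (86.7%, against 36.8% of all genes). In 10 both siPIR arrays were below all control arrays (66.7%, against 23.1% of all genes). The medians were -0.55 from siCTR and -0.67 from NO.

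STIL signals were 258 and 332 with siPIR, 989.8 and 958 with siCTR, and 1175 and 1100.4 with NO. The siPIR values were apart from all 4 controls, a log2 difference of -1.72 from siCTR (-1.92 to -1.51) and -1.94 from NO (-2.16 to -1.71), or 3.29-fold and 3.83-fold lower. STIL was the only called member that stayed called with each array left out in turn. PLK4 read 371 and 385 in siPIR, 1034 and 1147 in siCTR, and 986 and 746 in NO. It was lower by -1.51 from siCTR (-1.62 to -1.41) and -1.17 from NO (-1.40 to -0.95), and its other 2 probe sets gave -1.89 and -1.60 from siCTR and -1.82 and -1.62 from NO. Without NO replicate 1 the PLK4 difference from NO was -0.97, just short of 2-fold.

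CPAP read 389 and 339 in siPIR, 922 and 869 in siCTR, and 698 and 765 in NO. Its arrays did not overlap with either control, and its differences were -1.29 (-1.43 to -1.15) and -0.998 (-1.16 to -0.84), the second just short of 2-fold. Its other 2 probe sets gave -1.20 and -1.06 from siCTR and -1.47 and -0.95 from NO. SASS6 had a different pattern. It read 104 and 68.1 in siPIR, 130.3 and 110.2 in siCTR, and 396 and 190.2 in NO, so siCTR resembled siPIR more than NO. The difference was -0.48 from siCTR (-0.88 to -0.08), -1.64 from NO (-2.45 to -0.84), and -1.16 for siCTR minus NO. The NO arrays disagreed with each other, and without NO replicate 1 the difference of siCTR from NO was -0.64 and was no longer called. SASS6 has 1 probe set of its own on the array.

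The scaffold proteins CEP152 and CEP192 recruit PLK4 to the parent centriole. CEP152 read 442 and 577 in siPIR, 843 and 947 in siCTR, and 1104 and 720 in NO. It was lower on both siPIR arrays than on any control array, by -0.82 (-1.09 to -0.54) and -0.81 (-1.31 to -0.32). Its 2 other probe sets above the lower limit were negative against both controls. Both passed that limit through the controls alone, so they are no support for a fall. As the mean over all 5 of its probe sets, of which 2 were below that limit, CEP152 was -0.29 from siCTR and -0.39 from NO, and without NO replicate 1 it was -0.51 from NO. CEP192 read 283 and 382 in siPIR, 383 and 374 in siCTR, and 411 and 457 in NO, which overlapped with siCTR (-0.20) and lay lower than NO by -0.39. CEP63, the partner of CEP152, read 1761 and 1710 in siPIR, 1844 and 1632 in siCTR, and 1499 and 1610 in NO. Its differences were 0.00 and 0.16, while its other probe sets gave -0.23 and -0.32, and -0.09 and -1.37. The last of these probe sets passed the lower limit through NO alone, and on it siCTR was also -1.29 from NO. Averaged across its 3 probe sets CEP63 was -0.10 from siCTR and -0.51 from NO. CEP135, which ties the cartwheel to the centriole wall, read 257 and 202 in siPIR, 253 and 281 in siCTR, and 233 and 206 in NO, with overlapping arrays in both comparisons (-0.22 and 0.05), and averaged with a dim second probe set it was -0.48 from NO.

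**Figure D3:**
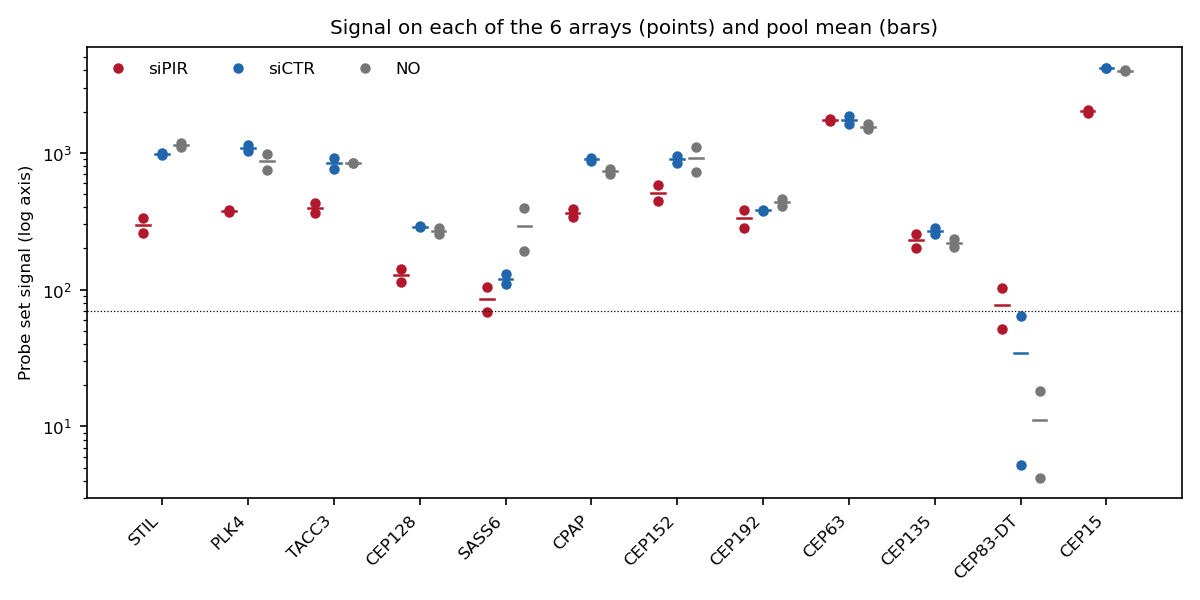
Probe set signal (log axis) on each of the 6 arrays for 12 members, with siPIR in red, siCTR in blue and NO in grey, bars at pool means and the lower limit of 70.2 dotted. STIL, PLK4, CPAP, TACC3, CEP128, CEP152 and CEP15 have both siPIR points below all 4 control points, and in SASS6 the NO points stand highest, at 396 and 190.2.

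The other duplication members shared the sign but not the size. CEP44, a protein of the centriole lumen, read 442 and 403 in siPIR against 705 to 860 on the control arrays, a difference of -0.88 and -0.92, with a second probe set at -1.07 and -1.31. Both probe sets, the ones above the lower limit, can bind other transcripts (suffix _x_at). CEP76, which restrains reduplication, differed by -0.70 and -0.85, with a second probe set at -0.76 and -0.24. CEP57 differed by -0.55 and -0.55. All 5 CEP57 probe sets were negative, from -0.90 to -0.45 against siCTR. CEP97, which caps the distal end together with CCP110, differed by -0.37 and -0.67, while its other probe sets gave 0.14 and 0.18 from siCTR. The STIL-binding protein CEP85 differed by -0.38 and -0.53. CEP120, which acts in centriole elongation, differed by -0.55 and -0.28 and CEP295 by -0.12 and -0.45, and both overlapped with at least 1 control pool.

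Promoters of members lower in siPIR are shown because many cell cycle genes carry short elements near their start sites. The elements searched on both strands were the CHR (cell cycle genes homology region, spelled TTTGAA or else as TTCGAA), an E2F site (spelled TTCCCGC, or with TTGGCGC, or with TTGCCGC, or else as TTCGCGC) and the CCAAT box. TTCGAA reads alike on both strands, and a CCAAT box on the minus strand can share bases with TTGGCGC. The windows run from 250 bases before to 50 after a start site in RefSeq (GRCh38.p14), and 48 of the 54 measured members had 66 windows. CEP15, CEP170B, CEP250, CEP78, PCM1 and TACC1 were not matched. Capitals below mark matches on either strand, and positions count from 1 at the start site, with negative numbers before it.
STIL, chr1:47314118-47314327, minus strand, positions -180 to 30: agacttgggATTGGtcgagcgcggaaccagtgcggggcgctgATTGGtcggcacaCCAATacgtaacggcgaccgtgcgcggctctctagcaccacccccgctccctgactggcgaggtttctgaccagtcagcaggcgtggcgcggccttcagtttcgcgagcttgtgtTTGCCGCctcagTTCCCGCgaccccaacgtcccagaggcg
HAUS8, chr19:17075423-17075572, minus strand, positions -120 to 30: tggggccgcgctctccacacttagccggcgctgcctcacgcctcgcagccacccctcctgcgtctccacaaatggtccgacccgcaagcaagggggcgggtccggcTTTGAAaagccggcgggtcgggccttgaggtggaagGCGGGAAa
CEP152, chr15:48811235-48811314, minus strand, positions -245 to -166: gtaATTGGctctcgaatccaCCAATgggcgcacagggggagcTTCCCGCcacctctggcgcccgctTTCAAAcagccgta
CEP76, chr18:12702734-12702763, minus strand, positions 15 to 44: actgTTTGAAaacagTTGGCGCcgccgccg
PLK4, chr4:127880919-127880942, plus strand, positions 27 to 50: cggcgggagattTTCAAAatggga

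STIL had the largest difference and PLK4 is the kinase that starts duplication. The STIL window held 3 CCAAT boxes and 2 E2F sites flanking the start and no CHR. The PLK4 stretch, from the first of its 3 windows, holds a CHR on the minus strand. HAUS8, CEP152 and CEP76 are shown because, among the members lower by 1.5-fold or more, each held a CHR and an E2F site in the same window. Over the windows of measured members 37.9% held an E2F site, 28.8% a CHR and 42.4% a CCAAT box. Over all 35116 windows these shares were 13.0%, 16.4% and 34.6%, and over the windows of measured genes 18.3%, 12.2% and 34.7%. CHR and E2F letters occurred together in 8 of the 66 windows (12.1%), against 1.76% of windows of measured genes. Of these 8, 4 lay in members lower by 1.5-fold or more, both windows of CEP76 among them. The other 4 lay in CEP57, CEP295, CEP192 and CEP112, which were not lower by that size. Among the 16 members lower by 1.5-fold or more, 14 had 18 windows, with an E2F site in 8 (44.4%), a CHR in 7 (38.9%) and a CCAAT box in 5 (27.8%). Among the other 34 matched members, with 48 windows, the counts were 17 (35.4%), 12 (25%) and 23 (47.9%). These differences were not tested. The windows of TACC3, CEP128, CPAP and HAUS6 held none of these letters. A match is a description of sequence and no factor was measured there, and windows of 1 gene can overlap.

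Every measured gene of the augmin complex read lower in siPIR. Augmin is a complex of 8 subunits that branches new microtubules from spindle fibres, and 7 were measured. All 7 were below both controls, against 36.8% of all genes. In 6 both siPIR arrays were below all control arrays (85.7%, against 23.1% of all genes). The medians were -0.71 from siCTR and -0.72 from NO, but no subunit passed 2-fold with its brightest probe set. HAUS8, the subunit that binds microtubules, read 134 and 162 in siPIR, 293.6 and 296 in siCTR, and 296 and 294.6 in NO, a difference of -0.97 and -0.98. HAUS5 read 234 and 236 in siPIR, 424 and 419 in siCTR, and 446 and 493 in NO, a difference of -0.83 and -0.98. In siPIR the repeat arrays were close for HAUS5 and further apart for HAUS8, and for both genes the siPIR arrays lay below every control array. HAUS6, which links augmin to the gamma-tubulin recruiter NEDD1, read 564 and 552 in siPIR, 917 and 916 in siCTR, and 945 and 902 in NO (-0.71 and -0.72). A second HAUS6 probe set gave -1.27 and -1.67, and one for HAUS5 -1.61 and -1.45, each lower than both controls by the 2-fold rule. HAUS3 differed by -0.77 and -0.57, HAUS1 by -0.53 and -0.62, and HAUS7 by -0.35 and -0.82. HAUS2 was the least displaced, at -0.16 and -0.46, and overlapped with siCTR. The probe set that HAUS4 shares with a microRNA gene gave -0.29 and -0.53 and was left out of all counts.

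Among the 4 spindle members TACC3 alone was called. TACC3, which with CKAP5 and clathrin braces kinetochore fibres, read 428 and 365 in siPIR, 918 and 762 in siCTR, and 842 and 846 in NO. Its siPIR arrays were below every control array, by -1.07 (-1.32 to -0.82) and -1.08 (-1.20 to -0.97). TACC3 fell short of 2-fold without siPIR replicate 2 (-0.96 and -0.97) or without siCTR replicate 1 (-0.94 from siCTR). Its paralogs TACC1 (0.03 and -0.03) and TACC2 (-0.01 and -0.13) overlapped with both controls. The second TACC2 probe set above the lower limit was 0.53 and 0.51 above them, and the other TACC1 probe sets gave -0.30 and -0.74, and -0.15 and -0.63. CKAP5, a microtubule polymerase, read 1844 and 1891 in siPIR and 2153 to 2167 on the control arrays, a small and even difference of -0.21 from each.

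Pericentriolar and satellite genes varied more. The medians of the 10 members were -0.41 from siCTR and -0.18 from NO, 7 were below both controls and 4 had siPIR arrays below all control arrays. CEP68, part of the linker between the 2 centrioles, read 719 and 529 in siPIR against 1098 to 1286 on the control arrays, by -0.94 (-1.27 to -0.61) and -0.96. Its other probe sets ran from -0.99 to -0.04 against siCTR, and from -0.86 to 0.52 against NO. CEP72, a satellite protein, differed by -0.98 and -0.91, with siPIR signals of 66.0 and 44.1 below the lower limit. It passed that limit through the controls alone, so its differences are no support for a fall, although it is counted among the lower members. The satellite protein CEP131 differed by -0.62 and -0.69, and CDK5RAP2, which activates the gamma-tubulin ring, by -0.55 and -0.67. PCNT, the large scaffold of the pericentriolar material, overlapped with NO (0.01) and was -0.31 from siCTR. NEDD1 (-0.10 and -0.07), CEP250 (0.09 and 0.03) and CNTROB (0.40 and 0.06) overlapped with at least 1 control. CEP290, a protein of the ciliary transition zone, differed by -0.41 from siCTR and overlapped with NO (-0.11). PCM1, the core satellite protein, differed by -0.41 and -0.25, while its 6 probe sets ranged from -0.81 to 2.55 against siCTR. The value of 2.55 came from a dim probe set that passed the lower limit through siPIR alone.

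Among appendage and cilium genes CEP128, a subdistal appendage protein, was called lower. It read 141 and 114 in siPIR, 284 and 292 in siCTR, and 253 and 284 in NO, by -1.15 (-1.31 to -0.98) and -1.05 (-1.27 to -0.82). The siPIR arrays lay below every control array. A dimmer CEP128 probe set read 5.6 and 7.1 in siPIR and 81.7 to 119.6 in the controls. It passed the lower limit through the controls alone, so it is no support for a fall. Another CEP128 probe set differed by -0.90 and -1.13. CEP128 fell short of 2-fold from NO without siPIR replicate 2 (-0.90), without NO replicate 2 (-0.96) or at 4 times the pseudocount (-0.96). CEP78 differed by -0.65 and -0.71 with siPIR signals of 504 and 504, and a second probe set at -1.34 and -1.45. CEP89, a distal appendage protein, differed by -0.52 and -0.41. CEP162 had the least even siPIR pair, 194.5 and 94.7, and overlapped with siCTR. CEP164, also of the distal appendages (-0.14 and -0.02), CEP19 (0.10 and 0.03) and CEP41 (0.10 and -0.04) overlapped with both control pools.

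The remaining members included the pair of genes, CEP170B and CEP85L, that read above every control array. CEP15 read 1963 and 2053 in siPIR, 4199.5 and 4176 in siCTR, and 3969 and 3996 in NO. The pairs were tight, the siPIR arrays were well below the controls, and the differences were -1.06 (-1.09 to -1.02) and -0.99 (-1.02 to -0.95), called against siCTR and just short of 2-fold against NO. CEP57L1, a paralog of CEP57, differed by -0.91 and -0.52, CEP95 by -0.44 and -0.57, CEP43 by -0.42 and -0.31 and CEP20 by -0.20 and -0.14. CEP170B, a microtubule-binding paralog of CEP170, read 1728 and 1598 in siPIR, 931 and 978 in siCTR, and 906 and 712 in NO. It was higher on both siPIR arrays, by 0.80 (0.71 to 0.89) and 1.04 (0.81 to 1.27), called against NO alone, and its probe set can bind other transcripts. CEP85L read 1940 and 1742 in siPIR against 1123 to 1479 on the control arrays (0.38 and 0.55). A second CEP85L probe set gave 0.41 and 0.53. CEP350 (-0.10 and -0.18), CEP70 (0.01 and -0.34) and CEP112 (0.22 and 0.15) overlapped with at least 1 control. The long non-coding RNA CEP83-DT read 103 and 51.9 in siPIR, 63.8 and 5.2 in siCTR, and 4.2 and 18.2 in NO. It passed the lower limit through siPIR alone, so its differences of 1.54 and 2.39 are no support for a rise, and its siCTR arrays overlapped with siPIR. The 3 probe sets that CEP170 shares with its pseudogene CEP170P1 ran from -0.08 to 0.45 against siCTR and were not counted. Below the lower limit were CEP126, CEP192P1 and CEP72-DT, and 10 genes had no probe set of their own.

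**Figure D4:**
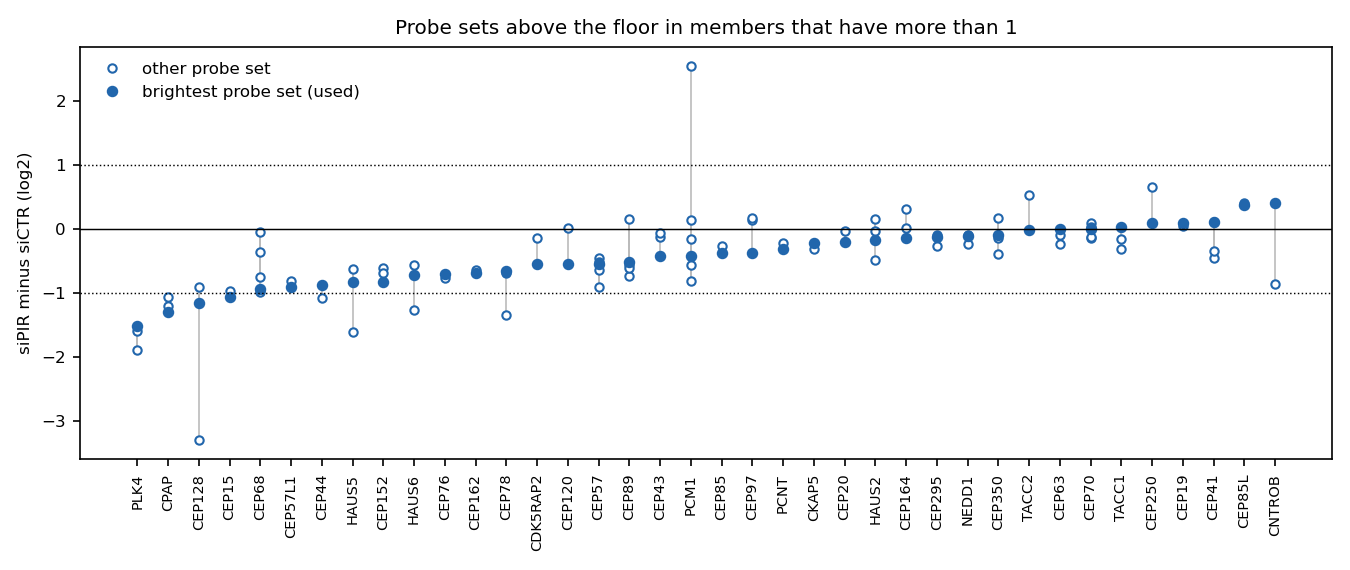
Log2 difference of siPIR minus siCTR for every probe set above the lower limit, in the 38 measured members that have more than 1; filled circles mark the brightest probe set, which represents the gene, and open circles the others. PLK4, CPAP, HAUS5, HAUS6 and CEP57 lie below 0 with every probe set, while PCM1 spans -0.81 to 2.55. The PCM1 point at 2.55 is a dim probe set that passed the lower limit through siPIR alone. The CPAP point at -1.20 passed it through the controls alone.

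Probe sets of 1 gene can target different transcript ends. Of 128 probe sets above the lower limit, 78.1% were lower in siPIR than in siCTR and 82.0% lower than in NO, against 45.1% and 50.2% of all 25089 such probe sets with 1 gene. The 128 include the brightest of each member. Among the 74 others 77.0% were lower than in siCTR and 82.4% lower than in NO, against 44.9% and 53.5% of 12036 such others over all genes. Some of the 74, such as those of CEP152, passed the lower limit through the controls alone. In 25 of the 38 members with several probe sets all had the sign of the brightest against siCTR, and in 29 of 38 against NO. Signs differed against siCTR alone in CEP120, CEP350, CEP41, CEP89, CEP97, HAUS2 and TACC1, against NO alone in CEP43, CEP68 and CEP85, and against both in CEP164, CEP63, CEP70, CNTROB, PCM1 and TACC2. In CNTROB the brightest gave 0.40 and another -0.86 from siCTR. Another probe set was called lower than both controls in CEP44, CEP78, CPAP, HAUS5 and HAUS6, whose brightest was not. That of CPAP passed the lower limit through the controls alone, so its call is no support for a fall. In PCM1 another (suffix _x_at) was called higher than both, by 2.55 and 1.36. It read 95.9 and 101.4 in siPIR and 6.6 to 48.0 on the control arrays, so it passed the lower limit through siPIR alone. Of the 128, 15 were called lower than siCTR and 25 lower than NO, against 4.11% and 6.01% of all such probe sets. In the other direction 1 and 4 were called. A PCNT probe set of low signal was 2.28 above NO while the brightest was at 0.01. On that dim probe set siCTR was also 2.49 above NO, which read 8.4 and 11.3, and siPIR differed from siCTR by -0.22.

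Members named for inherited microcephaly were among the lower ones. RefSeq aliases with the prefix MCPH mark 6 members: STIL, CPAP, SASS6, CEP152, CEP135 and CDK5RAP2. Of these, 5 had both siPIR arrays below all control arrays (83.3%, against 55.6% of measured members and 23.1% of all genes). The 5 include SASS6, which was also lower in siCTR than in NO. The medians of the 6 were -0.68 and -0.91. Seckel syndrome aliases mark CPAP, CEP152, CEP63, CEP295 and PCNT, with medians of -0.31 and -0.45. Ciliopathy aliases mark 4 measured members, CEP120, CEP164, CEP290 and CEP41. None of these 4 had siPIR arrays below all controls (23.1% of all genes), and the medians were -0.28 and -0.07. The groups are small and share members, and the differences between them were not tested.

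Neighbouring genes of the pathway differed by part. Of 11 measured genes in a gamma-tubulin list none was called in any comparison, with medians of -0.15 and -0.08. Over all measured genes 3.2% were called lower than both controls. At any size of difference, 6 of the 11 had both siPIR arrays below all control arrays (54.5%). That share was 55.6% of measured members and 23.1% of all genes. In the other direction there was 1, against 28.4% of all genes. Besides gamma-tubulin ring genes the list holds TUBD1 and TUBE1, which encode delta- and epsilon-tubulin and are not ring subunits. TUBGCP4 differed by -0.76 and -0.75, TUBGCP3 by -0.73 and -0.58 and TUBE1 by -0.36 and -0.62, and TUBG1, the main gamma-tubulin, differed by -0.15 and -0.08. Of 39 other centriole and satellite genes 1, the appendage gene SCLT1 (-1.08 and -1.14), was called lower than both controls and 0 higher. The lower share was 2.56%, against 3.2% of all measured genes, and the medians were -0.26 and -0.25. At any size, 20 of the 39 had both siPIR arrays below all control arrays (51.3%, against 23.1% of all genes). In the other direction there were 7, against 28.4% of all genes. ALMS1 averaged 258.5 with siPIR, 87.6 with siCTR and 367 with NO, its siCTR arrays standing apart at 28.3 and 146.9, so it was called higher than siCTR and not NO. Of 25 centrosomal kinases and spindle pole partners 8 were called lower than both controls (32.0%, against 3.2% of all genes) and 0 higher, with medians of -0.28 and -0.28. Of the same 25, 15 had both siPIR arrays below all control arrays (60.0%, against 23.1% of all genes). In the other direction 10 were above both controls, against 44.4% of all genes. Of the 25, 7 had both siPIR arrays above all control arrays, against 28.4% of all genes. PLK2 was at 0.40 and 0.49 and PLK3 at 0.64 and 0.89. NEK2, which splits the centriole linker, was at -1.91 and -2.0, the spindle protein HMMR at -2.02 and -1.92, ASPM at -1.63 and -1.52, PLK1 at -1.52 and -1.34, and BTRC, the ubiquitin ligase subunit that degrades PLK4, at -1.19 and -1.14. The 8 called genes read lower in the same pool as the centrosome genes, and their part in the result was not tested.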

How the data were processed

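The authors deposited a linear intensity for each probe set and array. GCOS, the Affymetrix array software, is named in the submitters' processing notes, without a version or a scaling target. No detection calls were used. RNA was pooled before labelling, per the labels' protocols. All 6 columns matched a sample and 0 were left over. Values were transformed as log2(value + 5.4), which understates differences of dim genes, and the arrays of a pool were averaged. For each gene the brightest probe set (mean log2 value over the 6 arrays) annotated with it alone was taken (41097 of 54675; 1801 carried several genes and 11777 were not listed). Symbols were matched to RefSeq GRCh38.p14 through Entrez identifiers (99.9%); CENPJ is CPAP there. Of the probe sets used, 5 were _x_at and 14 _s_at, and that of CEP76 was _f_at.

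No test of conditions was made, because each group is 1 RNA pool; calls combine size and separation of arrays, and precision is limited by how few arrays there are. The calling rule was tested on simulated data. Values on every array are given for members called against both controls or between the controls, 8 duplication factors, the 3 called with the smallest differences and the 3 not called with the largest; other members given by array were chosen after their values were seen. Members, roles and lists were chosen with earlier results of these data known. Alternatives were the pseudocount, the filter, quantile normalization, other probe set choices, a 1.5-fold limit and leaving out each array. Promoter windows came from RefSeq GRCh38.p14. Python 3.11.15, pandas 2.3.3 and numpy 2.4.6 were used.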

Additional observations from a re-analysis of the deposited data

How the results depend on the processing

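The direction of the members' median held under every alternative tried, and no called difference of the 12 members chosen by rule changed sign. The median from siCTR was -0.48 without _x_at and _s_at probe sets, -0.28 as the mean over probe sets, and -0.49 to -0.39 with an array left out; the median from NO was -0.53 without _x_at and _s_at probe sets and -0.51 to -0.46 with an array left out. That of siCTR minus NO was -0.084 as the mean over probe sets and -0.046 to -0.0029 with an array left out. The count called lower than both controls was 3 to 8 with an array left out, 6 as the mean over probe sets (CPAP and CEP15 joined) and 16 at a 1.5-fold limit; the count called higher was 0 to 1 with an array left out and 1 at 1.5-fold. Between siCTR and NO the count was 3 without a filter on low values, 2 as the mean over probe sets and 0 to 2 with an array left out. With an array left out 39 to 41 members were below both controls, 31 to 36 had siPIR arrays below all control arrays and 14 to 20 were lower by 1.5-fold or more; these 3 counts were chosen after seeing the data. Leaving out an array makes separation easier to meet. Dim probe sets limit CEP72, SASS6 and CEP83-DT. No paired analysis was possible because the replicate numbers mark repeat arrays of 1 pool and the results come from no test.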
